A study of Triticum aestivum with 12 samples.

Results

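The loci covered mainly under blue (B) light were the 151834 genomic sections of 11509120 in all (1.32%) that had at least 1 read in 5 or 6 of the 6 B light libraries and in at most 1 of the 6 white (W) light libraries of wheat leaves. They are called blue-covered loci here. The libraries came from methylated DNA immunoprecipitation sequencing (MeDIP-seq), in which an antibody against 5-methylcytosine (5mC) pulls down sheared genomic DNA that is then sequenced, and a count is the number of reads of 1 library at 1 locus. Plants of 1 winter wheat variety, 'Mv Béres', were raised in hydroponic solution at 250 µmol m-2 s-1, and the groups were BP (B light with 0.5 mM putrescine (PUT) for 7 days), BC (B light without PUT), WP (W light with 0.5 mM PUT for 7 days) and WC (W light without PUT). The blue share of the light energy was 82.14% in B light and 32.32% in W light, the red share was 16.7% in B light and 20.71% in W light, and the green share was 1% in B light and 45.71% in W light, so the W light plants received blue light as well. Each group had 3 independent biological repetitions, the leaf material was whole leaf, and the DNA of the different leaf cell types cannot be told apart in it. The study ran 3 independent experiments and took the methylation profile from 1 of them. How many growth chambers held each light is not given, so light cannot be told apart from chamber here. The counts of all 12 libraries chose the loci, so the difference between B and W light at these loci is a description of the choice, with no test.

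In plants 5mC occurs at cytosines before guanine and also in other sequence contexts, and it is densest over transposable elements and other repeats, where it helps to keep them silent. Bread wheat carries 3 related subgenomes, A, B and D, and most of its large genome consists of such repeats. Blue light is perceived in leaves by cryptochromes and phototropins, which act on seedling growth, stomatal opening and gene expression, and PUT is a small polyamine that plants make themselves. MeDIP reads report where methylated fragments were captured, and a locus without a read in a library may still be methylated.

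The libraries differed in breadth before any locus was chosen. A count was found at 4041980 ± 461785 loci in the B light libraries and at 2659570 ± 615882 loci in the W light libraries (SD, n = 6 each), which is 1382400 loci more under B light (exact permutation test, two-sided, p = 0.00433, adjusted p = 0.0195). The adjustment took in 9 comparisons of libraries, among them those at and near the blue-covered loci that are given below without p. The total count was 19641114 to 21355140 in the B light libraries and 15812048 to 18824815 in the W light libraries, and these ranges did not overlap. The reads per covered locus went the other way, with 5.09 ± 0.572 reads in B light libraries and 6.94 ± 1.68 reads in W light libraries (SD, n = 6 each, exact permutation p = 0.00866, adjusted 0.0244). WC replicate 1 stood apart, with 1563154 covered loci and 10.1 reads per covered locus, against 2459521 to 3332499 loci and 5.41 to 7.05 reads per covered locus in the other W light libraries. BP replicate 1 covered 3211670 loci, fewer than WP replicate 1 with 3332499, so the lights overlapped in breadth through these libraries. The part of this breadth in the results below was not tested unless a value is given beside them.

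**Figure D1:**
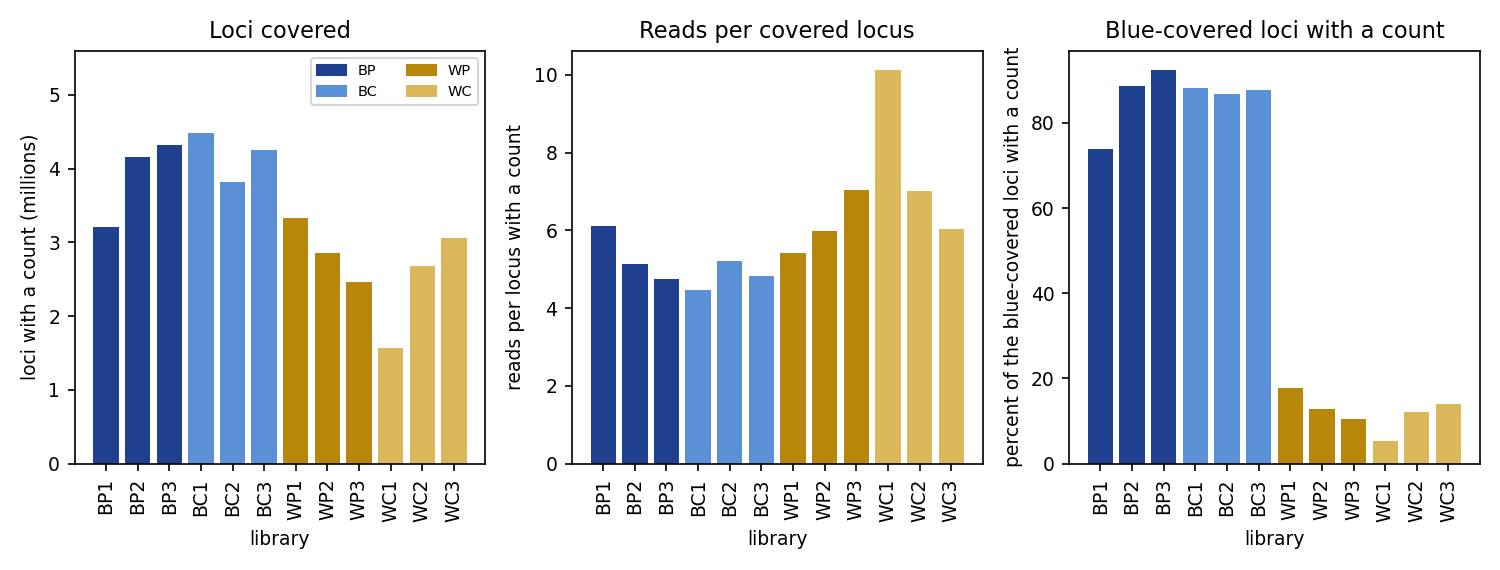
Loci with a count, reads per locus with a count, and percent of the 151834 blue-covered loci with a count, for each of the 12 libraries, with 1 bar for each library of BP, BC, WP and WC. The last panel was fixed by the choice of the loci, with 73.9% to 92.3% of them covered in B light libraries and 5.24% to 17.9% in W light libraries, and WC1 has the highest bar of reads per locus at 10.1.

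Most blue-covered loci lay at the edge of the choice. Of the 151834 loci, 89603 had a count in 5 B light libraries and 1 W light library, 35540 in 5 and none, 20788 in 6 and 1, and 5903 in 6 and none. The 89603 loci just inside had a median summed count of 24 under B light and 5 under W light. Just outside, the 136216 loci with counts in 5 B light and 2 W light libraries had medians of 26 and 11, and the 223164 loci with counts in 4 B light and 1 W light library had medians of 17 and 4. The 5903 loci at the far corner had a median summed B light count of 29. The set therefore passed into its neighbours without a gap in the counts.

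**Figure D2:**
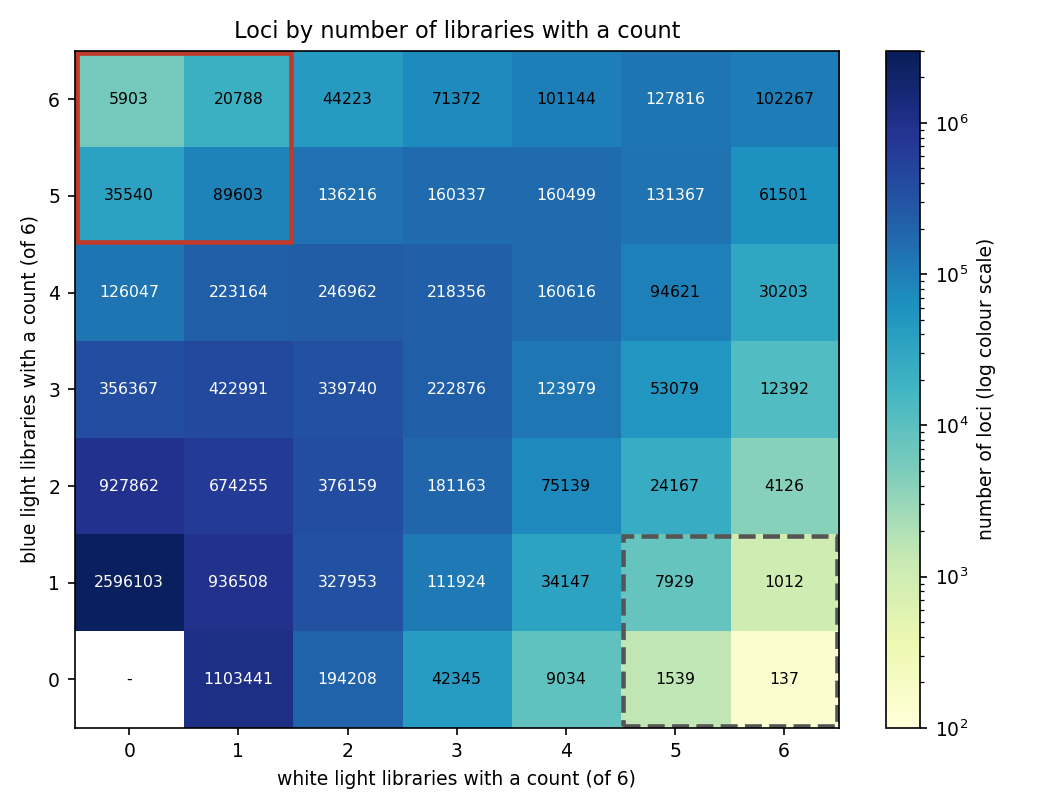
Number of loci by how many of the 6 B light libraries (vertical) and of the 6 W light libraries (horizontal) had a count, with colour on a log scale. The solid frame holds the 151834 blue-covered loci and the dashed frame the 10617 loci chosen the other way round, and the corner cells hold 5903 and 137 loci.

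The counts behind the choice were low. The summed count over the 6 B light libraries had a median of 24 and ran from 5 to 136, and the summed count over the 6 W light libraries had a median of 3 and ran up to 61. A B light library with a count had a median of 4 reads at such a locus. Where a single W light library had a count (110391 loci), its median was 5 reads. So the W light reads that did occur were about as many per covered library as the B light reads. A count of 0 in a library allows up to 3 reads, for counting error only, and the lower quartile of the counts in covered B light libraries was 2 reads, below that limit.

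The library that was missing or extra varied. Of the 125143 blue-covered loci without a count in 1 B light library, BP replicate 1 was the empty library at 31.6%, BP replicate 3 at 9.32% and each of the other 4 at 13.7% to 16.0%. By group, the empty library was from BP at 54.6% and from BC at 45.4%. Of the 110391 loci with a count in 1 W light library, that library was WP replicate 1 at 24.6% and WC replicate 1 at 7.20%. In the W light libraries the order of these shares was the order of the covered loci, from WP replicate 1 as the broadest to WC replicate 1 as the narrowest. Reads at the blue-covered loci made up 32800 ± 3439 CPM (counts scaled to the same library total) in BP and 32438 ± 3715 CPM in BC, against 6148 ± 369 in WP and 5665 ± 558 in WC (SD, n = 3 each), values that the choice fixed.

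The same rule was applied to every other way of dividing the 12 libraries into a first and a second 6. Of the 924 ordered divisions, B light first gave the second highest number of loci. The 923 others gave 5792 to 163349 loci with a median of 29721, and W light first, the mirrored choice, gave 10617 loci, 14.3 times fewer than B light first. This ratio depended on the settings. It was 4.14 with a count of at least 3 as covered and 43.1 for all of the first 6 and none of the others. With 1 library left out it ran from 4.86 (without WC replicate 1) to 16.3 (without BC replicate 2). The only division above B light first put together the 6 libraries that cover most loci, which were 5 B light libraries and WP replicate 1 in place of BP replicate 1, and it held 163349 loci. With 5 B light libraries among the first 6, the median over 36 divisions was 86643 loci, and with 3 it was 29315 over 400 divisions. PUT first gave 43661 loci and control first gave 20195. For loci in all of the first 6 and none of the others, B light first gave 5903, the highest of the others 6563, and their median was 471.

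**Figure D3:**
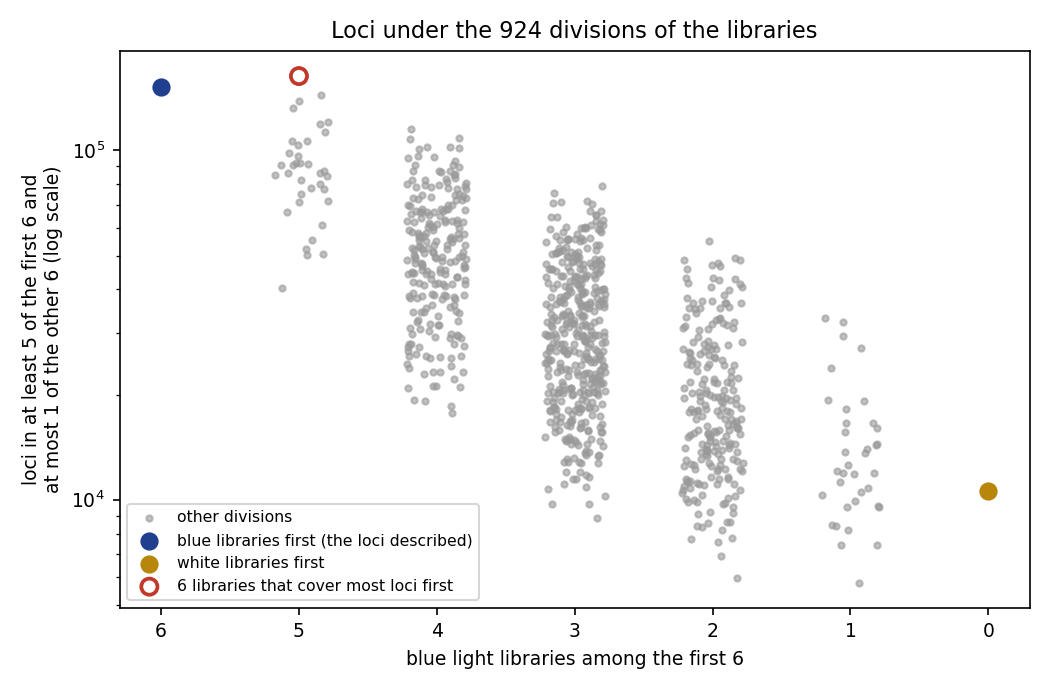
Number of loci with a count in at least 5 of the first 6 and at most 1 of the other 6 libraries (log scale), for each of the 924 divisions, by the number of B light libraries among the first 6. The filled blue point is B light first (151834 loci), the filled yellow point W light first (10617 loci), and the open point the 6 libraries that cover most loci (163349 loci).

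The number of blue-covered loci changed when the libraries were thinned. When every library was thinned to the lowest total count, B light first still gave 132480 loci and W light first 12469, and again 1 division lay above. When the reads of each library were instead thinned until it covered as many loci as WC replicate 1, B light first gave 12980 loci and W light first 30188, and 536 of the 923 other divisions lay above B light first, with a median of 13585. When covered loci themselves were drawn at random down to that number, B light first gave 7111 loci, the lowest of all divisions, and W light first gave 31647, the highest. These last thinnings were chosen after the data had been seen. Of the 12980 loci left by thinning the reads, 23.7% belonged to the 151834. The excess over the mirrored choice was thus present at equal read totals, where the libraries still covered 1563154 to 4273088 loci. Thinning to equal numbers of covered loci leaves WC replicate 1 whole and takes more, on average, from the B light libraries. How far this moves the numbers for B light first and W light first was not tested. The order was thus reversed at equal numbers of covered loci, and the part of breadth in either order was not tested.

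Coverage was then read in libraries that took no part in the choice. For each of the 36 pairs of 1 B light and 1 W light library, loci were chosen by at least 4 of the 5 remaining B light and at most 1 of the 5 remaining W light libraries, and the share with a count was read in the 2 libraries left out. This share had a median of 53.7% in the B light library (35.1% to 63.0%) and 33.9% in the W light library (16.6% to 44.5%). Loci covered in 4 to 6 of the 10 other libraries, irrespective of light, had medians of 52.1% in the same B light libraries and 36.9% in the same W light libraries. The excess of the chosen loci over these was therefore small, with a median of 1.94 percentage points in the B light library (-4.78 to 7.61) and -2.85 points in the W light library (-5.21 to -0.475). It was higher in the B light library than in the W light library in 32 of the 36 pairs. The choice allows the same range of 4 to 6 libraries, but how often each number occurs was not matched.

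By library, the excess in B light was 7.27 points in BP replicate 3, 1.16 in BP replicate 2 and -4.40 in BP replicate 1, and 5.37, 2.49 and 0.579 points in BC replicates 2, 3 and 1. It was -3.92, -3.20 and -2.02 points in WP replicates 1, 2 and 3, and -0.829, -2.38 and -3.87 points in WC replicates 1, 2 and 3. Thus 5 B light libraries were above 0, while BP replicate 1 lay below all 6 W light libraries. Loci chosen with W light first had a count in 50.6% of cases in the left-out B light library and in 43.7% in the left-out W light library (medians of the 36 pairs). The medians of the comparison loci, irrespective of light, were 52.1% and 36.9%. The loci of the mirrored choice thus lay below that median in the B light library and above it in the W light library. The pairs share libraries and loci, and no p is given. Without WC replicate 1, the loci chosen by B light first were covered at a median of 55.9% in the B light library and 37.2% in the W light library.

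**Figure D4:**
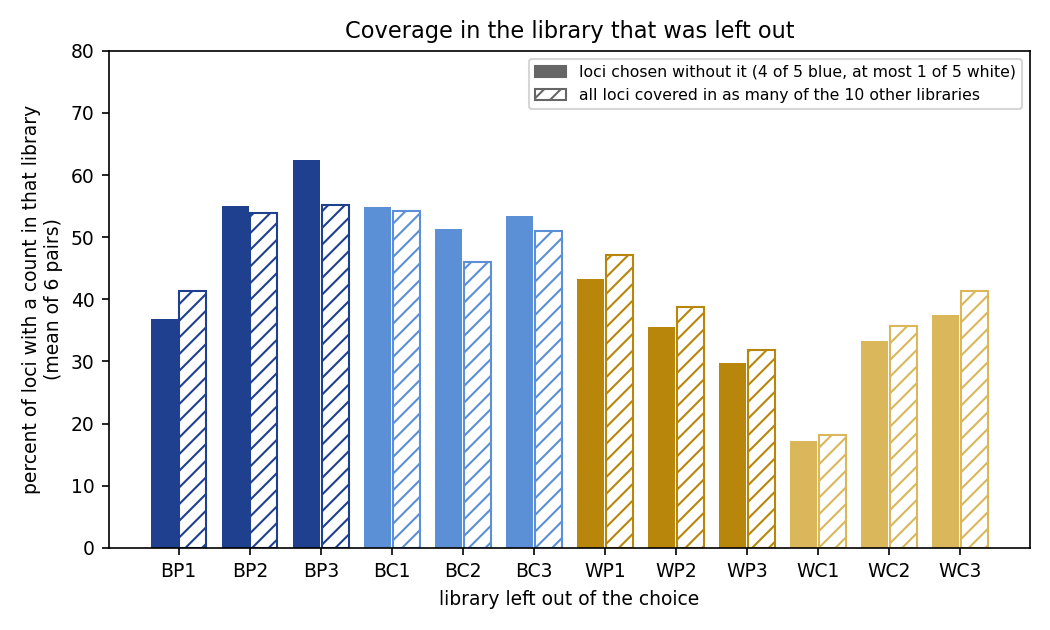
Percent of loci with a count in the library named on the horizontal axis, for loci chosen without that library (filled bars) and for all loci covered in 4 to 6 of the 10 other libraries (hatched bars), each the mean of the 6 pairs that leave that library out. The filled bar exceeds the hatched one in 5 of 6 B light libraries, most in BP3 (7.27 points), and is lower in BP1 and in all 6 W light libraries.

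The blue-covered loci with the most reads were found on 8 different chromosomes, and none of these 8 overlapped a protein-coding gene. Positions are given in the IWGSC CS RefSeq v2.1 build. The locus with the highest summed B light count (136 reads) lay at chr4D:172216077-172219129, with 5, 36 and 32 reads in BP and 12, 33 and 18 reads in BC, against 13, 0 and 0 reads in WP and none in WC. The next, at chr4A:665778766-665781415, had 19, 51 and 13 reads in BP and 13, 19 and 20 reads in BC, against none in WP and 0, 15 and 0 reads in WC. At both, a single W light library reached counts within the range of the B light libraries, so the lights overlapped.

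The locus at chr1D:366255765-366258895 was empty in every W light library and had 13, 27 and 27 reads in BP and 15, 11 and 28 reads in BC, so here the lights did not overlap. The locus at chr5D:282352180-282354264 was likewise empty under W light, and it had 0, 58 and 37 reads in BP and 11, 7 and 4 reads in BC. Its reads were therefore unevenly spread within B light, with most of them in BP replicates 2 and 3. The other 4 of these 8 loci, on 2D, 3B, 1B and 2A, had summed B light counts of 127, 121, 120 and 117 and a count of 2 to 6 reads in a single W light library.

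The blue-covered loci were spread over all 21 chromosomes. Subgenomes A, B and D held 36.3%, 34.6% and 29.0% of them. The 1988360 loci with a count in 5 to 7 of the 12 libraries, to which the blue-covered loci belong, were used for comparison, and of these 35.6%, 34.7% and 29.7% lay in A, B and D. The share of the loci with a count in 5 to 7 libraries that were blue-covered was 7.64% over the genome. It ran from 7.38% on 3B to 8.15% on 4B, so the chromosomes hardly differed. Per 1000 loci of any kind the numbers ran from 11.1 on 1B to 15.2 on 4B. A single blue-covered locus lay in the mitochondrial genome.

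Towards the chromosome ends the blue-covered loci became sparser among all loci, as did other loci of like coverage. The outer 10% at either end of the chromosomes held 14.6% of the blue-covered loci, 15.0% of the loci in 5 to 7 libraries and 18.4% of all loci. In 60 bins of 5% of chromosome length in the 3 subgenomes, there were 8.57 to 16.2 blue-covered loci per 1000 loci, while their share of the loci in 5 to 7 libraries stayed between 7.06% and 8.38%. In windows of 1 Mb with at least 200 loci, the median was 12.9 blue-covered loci per 1000 loci, and 106 of the 13905 windows had none. The window with the highest density, chr4A:270000001-271000000, held 26 blue-covered loci among 793 loci (32.8 per 1000). Windows were ranked by this value, so the first of 13905 is an extreme by construction.

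The loci were longer than most. Their median length was 1084 bp, against 1018 bp for the loci in 5 to 7 libraries, 522 bp for all loci and 969 bp for the 10617 loci of the mirrored choice. Only a small share stood side by side, though a slightly larger one than for the comparison loci. A blue-covered locus was next to another one at 3.51%, a locus in 5 to 7 libraries was next to a blue-covered one at 2.92%, and any locus at 2.62%. The median distance between neighbouring blue-covered loci on a chromosome was 58594 bp, and there were 64 runs of 3 or more loci in a row, the longest of 4.

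Loci that were not blue-covered themselves but lay 1 to 10 kb from one (2039205 loci) were also compared between lights. They are neighbours of loci that these same 12 libraries chose for their coverage under B light, so the values are a description, given without p. For each library the share of these loci with a count was divided by the share of all loci with a count. The ratio was 1.018 ± 0.0140 in B light and 1.028 ± 0.00409 in W light (SD, n = 6 each), a difference of -0.0105. All loci include the blue-covered ones, which lowers the ratio in B light by construction. Divided by the loci that are not blue-covered, an alternative chosen after the data had been seen, the ratio was 1.038 ± 0.0141 in B light and 1.022 ± 0.00383 in W light, a difference of 0.0165.

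The ratio to loci that are not blue-covered was 1.022, 1.042 and 1.062 in BP and 1.028, 1.041 and 1.033 in BC, against 1.019, 1.023 and 1.026 in WP and 1.019, 1.025 and 1.017 in WC. The lights overlapped, since BP replicate 1 lay below WP replicates 2 and 3 and WC replicate 2. At 10 to 50 kb the same ratio was 1.012 ± 0.00291 in B light and 1.019 ± 0.00170 in W light, a difference of -0.00640 and so of the opposite sign. The direction thus changed with the divisor and with the distance. The part of the breadth of the libraries in these ratios was not tested.

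Few blue-covered loci lay in genes. Of the 151834 loci, 2612 (1.72%, 95% Wilson interval 1.66% to 1.79%) overlapped an annotated protein-coding gene by at least 1 bp, against 1.60% of the loci in 5 to 7 libraries, 3.88% of all loci and 1.24% of the loci of the mirrored choice. With 3 kb added on both sides of the gene the shares were 4.94% for blue-covered loci, 4.90% for the loci in 5 to 7 libraries and 7.69% for all loci. Neighbouring loci are not independent, and no test was run. An annotated pseudogene was overlapped by 1006 blue-covered loci (0.663%), against 0.682% of the loci in 5 to 7 libraries and 0.917% of all loci. A long noncoding RNA gene was overlapped by 569 (0.375%), against 0.324% and 0.581%. There were 23 at a tRNA gene (0.0151%, against 0.0156% of all loci) and 16 at a snoRNA gene (0.0105%, against 0.00834%). A further 8 were at an snRNA gene (0.00527%, against 0.00513%) and 6 at an rRNA gene (0.00395%, against 0.00877%). Exons, introns and untranslated regions were not analysed here.

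The 2612 loci fell into 2500 of 102045 protein-coding genes. There was a single locus in 2385 of these genes and more in 115. The gene with the most was LOC123191586 on chromosome 2A (130771412 to 130942448), which held 6 blue-covered loci. The highest of them, at chr2A:130781194-130781849, had 0, 13 and 29 reads in BP and 3, 11 and 6 reads in BC, against 0, 0 and 4 reads in WP and none in WC. Another, at chr2A:130777803-130778987, had 3, 5 and 2 reads in BP and 0, 12 and 15 reads in BC, against none in WP and 0, 1 and 0 reads in WC. The high library thus differed from locus to locus along this gene. The other 4 had summed B light counts of 21, 21, 29 and 34.

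Among the blue-covered loci that overlapped a protein-coding gene, the highest summed B light count was 93, in LOC123121856 on 5D. It had 10, 27 and 25 reads in BP and 10, 8 and 13 reads in BC, against 0, 0 and 18 reads in WP and none in WC. The locus in LOC123061192 on 3A, with a summed count of 78, was empty under W light and had 0, 19 and 30 reads in BP and 18, 9 and 2 reads in BC. The other 6 of the first 8 had summed B light counts of 71 to 85, and each had a count in a single W light library. Only 1 of the 8 loci was thus without a W light read.

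The reference used gives these genes identifiers but no description, and so the keyword lists for photosynthesis and light perception, polyamine metabolism, DNA and histone methylation and transposon proteins could not be applied to the 2500 genes. Part of a gene table of the study, which lists genes it called on these same libraries, gave product names other than "uncharacterized" for 26 of them, with 28 blue-covered loci. None of these 26 names held a word of the 4 lists. The 26 genes are no sample of the 2500, because the study selected them for differences between the groups. Their 28 loci had summed B light counts of 7 to 77 (median 28), 16 of the loci lay wholly inside the gene, and 5 had no W light read.

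Several of the named genes act in making and breaking down RNA and protein. LOC123112424 on 5B is annotated as subunit 11 of DNA-directed RNA polymerases II, IV and V, and polymerases IV and V are the plant enzymes that serve RNA-directed DNA methylation. Its locus, at chr5B:454175333-454177976 and wholly inside the gene, had 0, 3 and 6 reads in BP and 13, 8 and 16 reads in BC, against none in WP and 0, 0 and 9 reads in WC. LOC123164228 on 7D, for a mitochondrial-like ribosomal protein S7, had 2, 9 and 12 reads in BP and 12, 27 and 15 reads in BC, against none in WP and 0, 20 and 0 reads in WC. In both, 1 WC library reached the range of the B light libraries and the rest of the W light libraries were empty. The locus on 7D spans its gene and reaches beyond it on both sides.

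LOC123089941 on 4B, for an alanine--tRNA ligase-like protein that would load tRNA with alanine, had 20, 27 and 3 reads in BP and 8, 6 and 13 reads in BC, against 0, 0 and 9 reads in WP and none in WC. LOC123052277 on 2D encodes alpha type-2 of the proteasome, the particle that degrades tagged proteins. Its locus had 1, 14 and 11 reads in BP and 3, 0 and 7 reads in BC, against 2, 0 and 0 reads in WP and none in WC. LOC123072082 on 3B, annotated as an E3 ubiquitin-protein ligase, a class of enzymes that tag proteins for degradation, had 4, 0 and 6 reads in BP and 12, 11 and 9 reads in BC, against 0, 2 and 0 reads in WP and none in WC. BP and BC overlapped in the ligase that loads tRNA and in the proteasome subunit, while in the E3 ligase every BC library was above every BP library. The log2 fold change in BP against BC at the E3 ligase was -1.77 ± 1.97 (SE, edgeR quasi-likelihood test, unadjusted p = 0.368). How often BP and BC separate in this way over all tested loci was not counted. The loci of these genes all overlap the gene only in part and reach beyond it.

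Other named genes act in transport, calcium signalling and the cell wall. LOC123086920 on 4A is annotated as calcineurin B-like protein 3, a calcium sensor that in Arabidopsis works with protein kinases at the vacuole, and its locus had 4, 4 and 22 reads in BP and 4, 11 and 11 reads in BC, against 0, 2 and 0 reads in WP and none in WC. LOC123105754 on 5A, for a callose synthase 3-like protein of a family that makes the cell wall polymer callose, had 3, 9 and 1 reads in BP and 4, 7 and 4 reads in BC, and none in any W light library. LOC123092084 on 4B, for a vacuolar cation/proton exchanger, was also empty under W light, with 0, 7 and 3 reads in BP and 13, 3 and 3 reads in BC. LOC123069753 on 3B, for a piezo-type mechanosensitive ion channel, had only 1, 0 and 3 reads in BP and 1, 6 and 2 reads in BC, against 0, 0 and 4 reads in WP and none in WC. The calcium sensor and the callose synthase loci had more reads in each B light library than in any W light library, whereas the exchanger and the channel each had a B light library without reads. The calcium sensor locus overlaps its gene only in part, while those of the callose synthase, the exchanger and the channel lie inside theirs.

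Of the genes for metabolic enzymes, LOC123100767 on 4D is annotated as a 4-hydroxyphenylacetaldehyde oxime monooxygenase-like protein, named after an enzyme of the cyanogenic glucoside pathway in sorghum. Its locus, which overlaps the gene only in part, had 0, 3 and 3 reads in BP and 13, 10 and 12 reads in BC, and none under W light. Every BC library was above every BP library here too, with a log2 fold change in BP against BC of -2.61 ± 2.07 (SE, edgeR quasi-likelihood test, unadjusted p = 0.207). LOC123143261 on 6D, for a hydroquinone glucosyltransferase-like enzyme, which would add glucose to phenolic compounds, had 6, 3 and 4 reads in BP and 4, 0 and 5 reads in BC, and again none under W light. Of the regulators, LOC100286388 on 5D shares its product name with the maize homeobox gene rough sheath 1, which acts in shoot meristems. It had 8, 1 and 3 reads in BP and 1, 4 and 3 reads in BC, against none in WP and 0, 18 and 0 reads in WC, so its highest count was in a W light library.

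**Figure D5:**
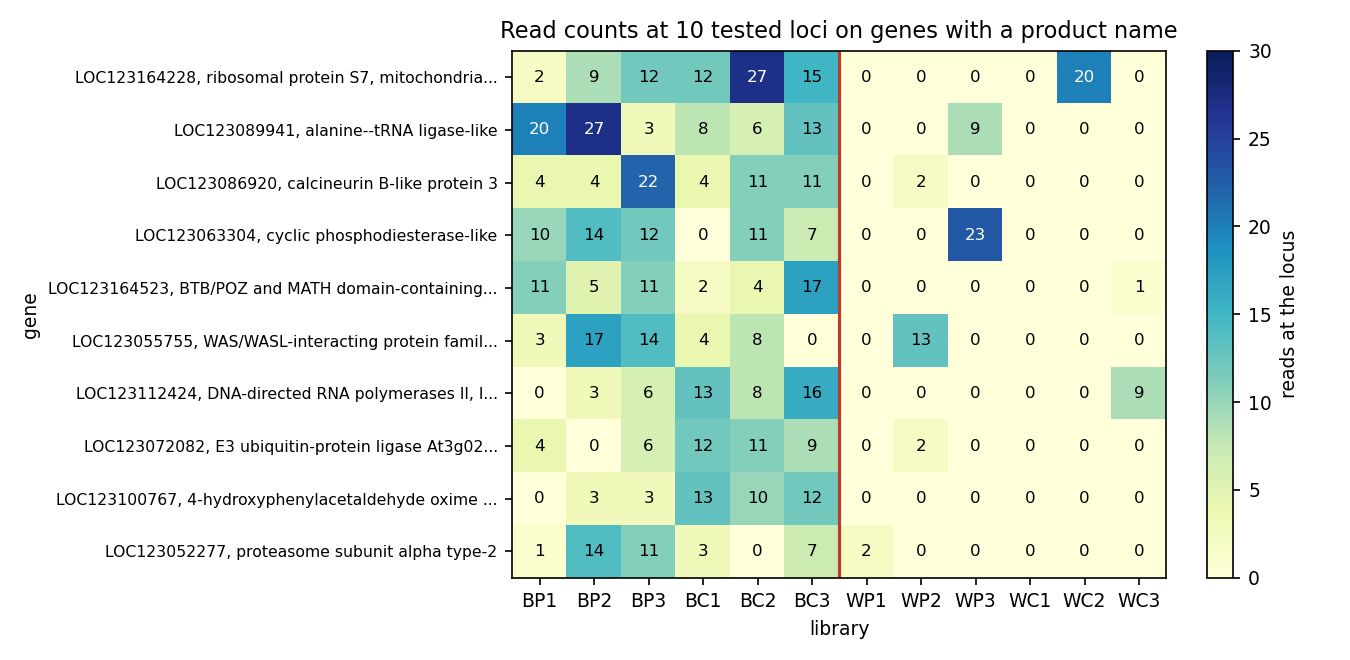
Reads at the 10 blue-covered loci that overlap a gene with a product name and passed the filter on low counts, with libraries of BP and BC left of the line and of WP and WC right of it, and colour from 0 to 30 reads. At 9 of the 10 loci exactly 1 W light library has reads, from 1 in LOC123164523 to 23 in LOC123063304, and LOC123100767 has none.

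The rule treats BP and BC alike, and the effect of PUT under B light was therefore looked at in the blue-covered loci. It is not free of the rule, though. A locus with counts in at least 5 of 6 B light libraries cannot be empty in all of BP or all of BC, which leaves out the largest folds, so the counts of calls below are a description from which nothing is read. Of the 151834 loci, 6736 (4.44%) reached counts above 10 in 2 or more libraries of the same group and entered the test, against 3.28% of the loci in 5 to 7 libraries. Of these, 4298 passed through BP, 2697 through BC and 259 through both, so a locus that passed through BP alone had to be high there. None of the 6736 was called (edgeR quasi-likelihood test, with p below 0.01 and a log2 fold change beyond 1.5 in either direction), against 0.196% of all 539307 loci tested that were higher in BP and 0.137% that were lower. At an unadjusted p below 0.05 there were 3 of the 6736, and at an adjusted p below 0.05 none, where 0.00185% of all loci passed. The likelihood ratio test of edgeR and DESeq2 each called 1 of the 6736, where 1.14% and 0.934% of all loci were called, and a fit of the 6 B light libraries alone called 13 (4 higher and 9 lower in BP), where 0.753% of all were.

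The locus with the smallest p, at chr4B:121017471-121018305, had 4, 21 and 32 reads in BP and 0, 1 and 1 reads in BC, a log2 fold change of 4.54 ± 2.03 (SE, edgeR adjusted p = 1). On the other side, the locus at chr4D:391857080-391859125 had 0, 1 and 3 reads in BP and 27, 8 and 19 reads in BC, a log2 fold change of -3.73 ± 1.87 (SE, edgeR adjusted p = 1). The locus at chr3B:634333084-634334384, with 0, 1 and 1 reads in BP and 30, 11 and 2 reads in BC, had a log2 fold change of -4.36 ± 2.21 (SE, edgeR adjusted p = 1). In all 3 the libraries of BP and BC did not overlap. They were picked for a small p and passed the filter through the group where they were high, so this is a description. How often BP and BC do not overlap over all tested loci was not counted, and nothing is read from it here. Of the loci picked in the same way, those on 5B and 5A did not overlap either. The one on 2B did, with 0, 1 and 4 reads in BP and 2, 26 and 27 reads in BC. The common dispersion estimated over the tested loci was 0.951. None of these loci passed, and the smallest unadjusted p of all 6736 loci was 0.0250 (edgeR quasi-likelihood test).

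Over all blue-covered loci, the share with a count was 85.0% ± 9.74 in BP and 87.5% ± 0.686 in BC (SD, n = 3 each), a difference of -2.53 percentage points. The rule bounds this difference, since it asked for counts in at least 5 of the 6 B light libraries, and no test is given. The direction rested on BP replicate 1, which covered 73.9% of the loci. Without that library the difference was 3.00 points.

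The comparisons between lights used the contrast by which the loci were chosen, and their counts are a description. In BC against WC, 2318 of the 6736 tested blue-covered loci were called higher, where 2.36% of all 539307 loci were, and in BP against WP 1729 were, where 1.39% of all were. No blue-covered locus was called lower in either comparison. At an adjusted p below 0.05 there was 1 blue-covered locus in BC against WC, where 0.0139% of all loci passed, and 1 in BP against WP, where 0.0076% of all did. The locus of the first was the one at chr4D:172216077-172219129, with no read in WC.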

How the data were processed

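MeDIP-seq counts of 12 wheat leaf libraries were used, 3 libraries in each of BP, BC, WP and WC. The authors trimmed reads with Trim Galore and Cutadapt, checked them with FastQC, aligned them with BWA to IWGSC CS RefSeq v2.1 and used bedtools to define covered loci and to count reads. The authors deposited these counts as whole numbers, without normalization, and removal of duplicate reads is not given in the sources used here. The deposited file also gives each locus with its start, end and length; starts count from 0 and were raised by 1. Input libraries were not used here. A locus was covered in a library at a count of at least 1.

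Total counts ran from 15812048 to 21355140. Of 66 pairs of libraries none was identical. Intervals (95%, Wilson) and the floor of 3 counts cover counting error only, since reads carried no molecular identifiers. PUT was tested with edgeR 4.0.16 in R 4.3.3 (quasi-likelihood, TMM, all 12 libraries) on loci where 2 or more libraries of the same group had counts above 10, called at p below 0.01 with a log2 fold change beyond 1.5 either way, with Benjamini-Hochberg adjustment. DESeq2 1.42.0 was an alternative. Libraries were compared by two-sided exact permutation tests (SciPy 1.17.1). Scripts were tested on simulated data. Loci named were the 8 with the highest summed B light count, the 8 highest in protein-coding genes, the 3 of smallest p higher and lower in BP than BC, those of the gene with the most loci, and the window of highest density. Genes with product names, and the gene with the most loci, were chosen after values had been seen. Genes came from the RefSeq annotation of IWGSC CS RefSeq v2.1, and names from the study's table. Members and lists were chosen with earlier results of these data known.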

Additional observations from a re-analysis of the deposited data

Results flagged for a closer look

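In 12 sets of 6 libraries of 1 light, the library at either end was compared with its nearest neighbour, and 2 stood apart by Dixon's criterion, which chance alone meets in about 1 of 20 sets. The share of blue-covered loci with a count was 73.9% in BP replicate 1, while the next lowest B light library, BC replicate 2, had 86.8%. The gap was 0.698 of the range. The choice of the loci bounds and links these shares, so the rate of 1 in 20 does not apply to them and this flag is a description. The reads per covered locus were 10.1 in WC replicate 1, and 7.05 in the next W light library, WP replicate 3, a gap of 0.651 of the range. BP replicate 1 also covered the fewest loci of the B light libraries and WC replicate 1 the fewest of all 12.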

How the results depend on the processing

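The number of blue-covered loci was 151834. It was 70022 with a count of at least 3 as covered, 5903 for all 6 B light and no W light library, 928446 for at least 4 B light and at most 2 W light libraries, 12980 with reads thinned and 7111 with covered loci thinned to the lowest number of covered loci, and between 177955 and 331245 with each library left out in turn, where the rule was 4 of the 5 B light libraries that remained or 1 of the 5 W light libraries that remained, and so was also looser. The share of blue-covered loci in protein-coding genes was 1.72%, 4.94% with 3 kb on both sides, 1.19% with at least 0.5 of the locus inside, and 1.41% among the loci that passed the filter on low counts.

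The ratio at loci 1 to 10 kb away differed between B and W light by -0.0105 relative to all loci. The difference was -0.0329 at 10 to 50 kb and 0.00255 in read counts. Relative to loci that are not blue-covered it was 0.0165 for coverage, 0.0310 for read counts, and -0.00640 at 10 to 50 kb. With each library left out in turn it was -0.0152 to -0.00683, the lowest without BP replicate 3, relative to all loci and 0.0118 to 0.0198 relative to loci that are not blue-covered. The share of blue-covered loci with a count in BP minus BC was 3.00 points without BP replicate 1, with -6.19 as the lowest value with a library left out, and 362 CPM when reads were used. The cause of these reversals was not tested.

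Of the blue-covered loci, 0 were called in BP against BC, with 1 by the likelihood ratio test, 1 by DESeq2 and 13 with the 6 B light libraries alone; with each of the 6 B light libraries left out in turn the range was 0 to 0. The 6 loci named from this comparison kept their direction in all 78 values under the alternatives, and p was below 0.01 in 8 of these: all 6 loci with the B light libraries alone, and the locus on 4B by the likelihood ratio test and by DESeq2. The fit without a filter on low counts was not run. A replicate block left the count of blue-covered loci called at 0, with 884 of all loci called in place of 1796. No pairing by replicate number was seen: deviations of same-numbered libraries correlated between -0.0777 and 0.141, 1 of 18 pairs above 0.1, and 4 of 12 libraries correlated best with one of their own number. Libraries of other numbers correlated between -0.174 and 0.227. Both kinds of pair had medians near 0, so this check could not decide whether the numbers mark a block.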
